A study of Mus musculus with 26 samples.

Results

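Glycolysis and the hypoxia response were followed through 40 mouse genes, listed by symbol: glucose and lactate carriers, the enzymes from hexokinase to lactate dehydrogenase, regulators of glycolytic flux, and further genes known to be induced by low oxygen. Each gene was represented by its probe of highest mean signal on an Illumina MouseRef-8 bead array. Of the 40 genes, 33 were measured, among 9840 genes tested in all. Slc16a1 and Bnip3 had a probe that was above background on 0 of 26 arrays. Gpi1, Eno1, Ldhb, Ankrd37 and Ero1l had no probe of that name. Of the 33 measured genes 23 were detected on all 26 arrays, and the other 10 on fewer.

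The arrays profiled bulk RNA of 13 cell lines, 2 arrays per line, all labelled with the OG2 mouse strain. GSC[neonatal] and GSC[adult] are germline stem cells, cultured spermatogonial cells, labelled day 10 and day 40. From each of these origins there were 2 induced pluripotent clones, iPSC[GSCneonatal]#1 and #2 and iPSC[GSCadult]#1 and #2, and 2 gPSC clones, germline-derived pluripotent stem cells, gPSC[GSCneonatal]#1 and #2 and gPSC[GSCadult]#1 and #2. These 8 lines are called the germline-derived clones here, and the numbered clones of an origin share that 1 origin. MEF are mouse embryonic fibroblasts, iPSC[MEF] is the 1 induced line made from OG2 MEF with a factor set labelled Tet-4F, and ESC is 1 embryonic stem cell line. Culture medium, oxygen, feeder layer and passage are not given in the sources used here, and their part in any difference was not tested.

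Glycolysis converts glucose to pyruvate in the cytosol, and lactate dehydrogenase then reduces pyruvate to lactate. Pluripotent stem cells are known for a high rate of glycolysis even when oxygen is plentiful. When oxygen is low, the prolyl hydroxylases encoded by the Egln genes slow down, the transcription factor HIF-1 accumulates, and it raises the transcription of many glycolytic enzymes together with genes such as Vegfa, Ndrg1 and Car9.

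HIF-1 binds DNA at sites with the core ACGTG. The promoter windows of 4 genes are shown, those of Ldha and Hk2, which stood far apart in clones and GSC, and those of Aldoc and Vegfa, which varied widely between clones. Each window holds 250 bases before and 50 after an annotated start, written 5′ to 3′ on the gene's strand, in lower case with every ACGTG on either strand in capitals, so that it reads ACGTG or CACGT. All 4 are RefSeq sequences on GRCm38.p6. Ldha (chr7:46845554-46845853, plus strand) had 5 matches. Hk2 (chr6:82774405-82774704, minus strand) had 2, Aldoc (chr11:78322823-78323122, plus strand) had 1 and Vegfa (chr17:46025114-46025413, minus strand) had 1. The window printed for a gene is the one with the most matches. Ldha, Aldoc and Vegfa each have a second annotated start, whose window had 0 matches and is not printed (chr7:46846832-46847131, chr11:78323948-78324247 and chr17:46032328-46032627). For Vegfa, on the minus strand, the unprinted start lies upstream, so the printed window and its match lie at an internal start of the gene.
Ldha: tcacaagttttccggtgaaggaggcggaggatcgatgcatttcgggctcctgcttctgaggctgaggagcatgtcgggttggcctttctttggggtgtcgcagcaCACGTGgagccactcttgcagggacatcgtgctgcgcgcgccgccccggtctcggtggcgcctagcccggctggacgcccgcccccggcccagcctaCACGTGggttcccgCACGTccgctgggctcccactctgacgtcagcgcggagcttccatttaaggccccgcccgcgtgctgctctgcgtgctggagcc
Hk2: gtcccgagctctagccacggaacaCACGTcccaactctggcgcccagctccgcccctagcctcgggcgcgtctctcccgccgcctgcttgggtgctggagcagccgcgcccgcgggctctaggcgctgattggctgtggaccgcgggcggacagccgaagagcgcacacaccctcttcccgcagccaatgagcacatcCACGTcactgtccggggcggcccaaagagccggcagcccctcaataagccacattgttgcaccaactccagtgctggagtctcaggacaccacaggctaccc
Aldoc: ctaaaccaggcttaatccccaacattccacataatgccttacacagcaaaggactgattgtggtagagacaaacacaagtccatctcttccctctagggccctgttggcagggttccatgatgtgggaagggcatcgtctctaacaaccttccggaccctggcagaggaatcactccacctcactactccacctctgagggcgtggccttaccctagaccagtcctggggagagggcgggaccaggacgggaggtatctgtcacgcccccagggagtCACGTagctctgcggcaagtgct
Vegfa: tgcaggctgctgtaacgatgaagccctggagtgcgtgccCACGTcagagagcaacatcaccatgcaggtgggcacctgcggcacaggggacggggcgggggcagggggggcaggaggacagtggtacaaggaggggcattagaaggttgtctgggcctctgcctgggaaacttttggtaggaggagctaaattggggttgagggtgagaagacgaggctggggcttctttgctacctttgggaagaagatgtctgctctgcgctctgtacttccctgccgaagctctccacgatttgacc
In Ldha, 4 of the 5 matches overlap in pairs, because CACGTG at -145 and at -48 from the start reads as a match on both strands, and the fifth begins at -34. The matches of Hk2 begin at -226 and -52, that of Vegfa at -211, and that of Aldoc at 28 after the start. Of the 33 measured genes 31 had a window, and 22 of these 31 (71%) held ACGTG in at least 1 window, against 21.8% of all 27025 genes with a window. Per window the shares were 58.1% of 43 windows and 19.6% of 32851. The variant GCGTG was held by 21 of the 31 genes, against 35.2% of all genes. Slc2a3 and Ndrg1 had no window. The set was listed for glycolysis and the hypoxia response, so a higher share can follow from that choice and is no result about these lines. The 27025 genes were also not limited to those detected on these arrays. A match is a string of letters, and no binding was measured in these lines.

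Values are log2 signal after background correction and quantile normalisation, and a value of 1 is a doubling. The median gap between the 2 arrays of a line was 0.086 over these genes and lines, and the largest was 0.65. A difference was called at an adjusted p under 0.05 by limma (Benjamini-Hochberg over 9840 genes), fitted to the 26 arrays with the line as a random block. That fit uses 1 shared correlation for all genes, whereas these genes varied more between clones than most, with a median SD over the 8 clones of 0.62 against 0.26 for all genes. Each difference was therefore also tested on 13 line means, a smaller number of independent values, and "rose" and "fell" are used only where a gene passed in both fits. In the comparisons with GSC and MEF and of the steps, SE and adjusted p are from the fit on arrays unless line means are named. On line means they were mostly larger.

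Several arrays stood apart. The 2 MEF arrays had a mean raw signal of 712 and 725, against 238 to 303 on the other 24, so the MEF level and this property of the arrays cannot be told apart. The 8 lines other than the iPSC[GSC] clones and MEF had 1 array of higher raw background each, with medians of 100 to 103 against 89.2 to 94.0 on the 16 other arrays. The line means of gPSC[GSCneonatal]#2 and iPSC[MEF] correlated at 0.997 over all genes, where the next highest of 45 pluripotent pairs reached 0.989 and the lowest 0.897, although their labels give them different origins. Counts and medians over the clones are therefore also given without gPSC[GSCneonatal]#2, while the fibroblast step has no other line in the place of iPSC[MEF].

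Most of the glycolytic chain was higher in the 8 germline-derived clones than in the 2 GSC lines. Of 33 genes 25 were called higher and 1 lower, where 23.2% of all genes were called higher, 27.3% lower and 50.5% either way. On line means 16 rose and 1 fell, with 18.8%, 24.5% and 43.4% of all genes as the background. The median difference of the 33 was 1.16, against -0.01 over all genes. All 8 clones were above both GSC lines in 19 of the 33 genes and below both in 1, where 25.1% of all genes showed the former and 29.1% the latter. In bulk RNA, fewer cells of a type and less RNA per cell cannot be told apart. Without gPSC[GSCneonatal]#2, 26 genes were again called on arrays and 20 on line means, where 52.9% and 43.7% of all genes were called. The 20 were the same 17 with Eno2, P4ha1 and P4ha2. All remaining clones were again above both GSC lines in 19 genes, where 25.5% of all genes showed this. Without both gPSC[GSCneonatal]#2 and gPSC[GSCadult]#2, 28 genes were called on arrays, where 59.7% of all genes were (the last and the fit on line means were chosen after seeing the data).

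All 3 measured carriers were called higher. Slc2a3, the high-affinity glucose carrier GLUT3, ran from 11.21 in gPSC[GSCadult]#2 through a median of 12.70 to 12.96 in iPSC[GSCneonatal]#1, against 9.40 in GSC[neonatal] and 9.28 in GSC[adult]. Every clone was thus far above both GSC lines, and Slc2a3 rose by 3.14 ± 0.26 (SE, adjusted p = 8.05e-10 by limma on the arrays of 8 clones and 2 GSC lines). With the line as the unit the SE was 0.44 and the adjusted p 0.00231 by limma on line means. Slc2a1, the widespread glucose carrier GLUT1, ran from 10.51 through 11.98 to 12.63 in the clones, against 10.11 and 10.84 in the GSC lines. Its groups overlapped, since gPSC[GSCadult]#2 lay below GSC[adult], and its difference of 1.48 ± 0.30 was called on arrays but not on line means (adjusted p = 0.0556 by limma). Slc16a3, a lactate exporter, was not above background on any of the 4 GSC arrays and was detected on 14 of 16 clone arrays. It rose at least 1.37-fold, taking the detection floor as the level of the GSC lines (adjusted p = 6.95e-04 by limma). Its relative Slc16a1, a carrier of lactate and pyruvate, was not measured.

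Hexokinase, the enzyme that traps glucose in the cell, differed between its isozymes. Hk2, the inducible form, ran from 10.78 in gPSC[GSCadult]#2 through 11.67 to 12.15 in iPSC[GSCneonatal]#1, against 8.69 and 8.26 in neonatal and adult GSC. The groups did not overlap, and Hk2 rose by 3.10 ± 0.22 (adjusted p = 6.33e-11 by limma). Hk1, the constitutive form, ran from 5.93 through 6.62 to 7.56, on both sides of the GSC values of 6.44 and 6.50. Its difference of 0.23 ± 0.26 was not called (adjusted p = 0.485 by limma).

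Phosphofructokinase, the committing step of glycolysis, showed the largest single difference of the 33 genes. Pfkl, the liver-type subunit, ran from 9.34 through 11.22 to 11.62 in the clones, against 7.0 and 7.19 in the GSC lines. It rose by 3.86 ± 0.30, or 14.5-fold (adjusted p = 2.66e-10 by limma). These values come from the brighter Pfkl probe, at a mean of 10.22 over all arrays; a dimmer one, at 5.80 and above background on 25 arrays, differed by 0.52, so the size rests on the choice of probe. Pfkp, the platelet-type subunit, ran from 6.64 through 8.57 to 9.67, against 6.01 and 5.97, and it rose by 2.40 ± 0.42 (adjusted p = 4.28e-05 by limma). Pfkm, the muscle-type subunit, was already at 9.36 and 9.54 in GSC and ran from 9.42 through 9.83 to 10.33 in the clones. Its difference of 0.44 ± 0.17 was called on arrays (adjusted p = 0.0303 by limma) and not on line means (0.152). Leaving out GSC[adult] (adjusted p = 0.0666 by limma), GSC[neonatal] (0.245), iPSC[GSCadult]#2 (0.0714) or iPSC[GSCneonatal]#1 (0.0612) ended the call too.

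The aldolases, which split fructose bisphosphate, went separate ways. Aldoa ran from 10.97 through 12.76 to 13.24 in the clones, against 9.72 and 9.24 in the GSC lines, and rose by 2.98 ± 0.30 (adjusted p = 1.55e-08 by limma). Aldoc, the brain-type isozyme, was at 8.72 and 8.69 in GSC, inside the range of the clones, which ran from 5.49 in gPSC[GSCadult]#2 through 9.09 to 9.58 in iPSC[GSCneonatal]#2. Of the clones 4 were above both GSC lines and 3 below, and the difference of -0.34 ± 0.56 was not called (adjusted p = 0.661 by limma). Tpi1, triosephosphate isomerase, ran from 11.12 through 12.59 to 13.01, against 9.71 and 9.52, and rose by 2.78 ± 0.24 (adjusted p = 1.55e-09 by limma).

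All 7 measured genes of the set from glyceraldehyde phosphate to lactate were called higher in the clones, and Eno2 was the 1 of these 7 that did not pass on line means. Ldha, which makes lactate from pyruvate, ran from 12.03 through 12.80 to 13.04 in the clones, against 9.63 and 9.67 in the GSC lines. Its spread over the clones was small beside the gap to GSC, and it rose by 3.11 ± 0.17, or 8.64-fold (adjusted p = 2.72e-13 by limma on arrays and 1.98e-04 on line means). Pkm, pyruvate kinase, ran from 12.45 through 13.09 to 13.25, against 11.66 and 11.22, and rose by 1.56 ± 0.17. Pgam1, phosphoglycerate mutase, rose by 1.16 ± 0.20. Gapdh, the dehydrogenase often taken as a constant reference gene, ran from 13.80 to 13.98 in the clones against 12.64 and 12.71 in the GSC lines. It rose by 1.23 ± 0.13 (adjusted p = 1.95e-08 by limma), close to the highest normalised signal of any probe, 14.20, where the scale leaves little room. Pgk1, phosphoglycerate kinase, had a dim probe, above background on 0 of 4 GSC arrays and 13 of 16 clone arrays, and rose at least 1.41-fold.

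Among the enolases, Eno2, the neuronal form, ran from 6.05 through 7.77 to 9.57 in the clones, against 5.62 and 5.34 in GSC. All clones were above both GSC lines, but the spread was wide, and the difference of 2.18 ± 0.48 passed on arrays (adjusted p = 5.55e-04 by limma) and not on line means (0.0898). Eno3, the muscle form, ran from 6.07 through 6.62 to 6.81, against 5.80 and 5.97, and rose by 0.66 ± 0.21 (adjusted p = 0.00958 by limma). Without GSC[neonatal] that call was lost (adjusted p = 0.114 by limma). Eno1, the widespread form, and Ldhb, the other main lactate dehydrogenase subunit, were not measured.

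The regulators of flux were mixed. Pdk1 and Pdk3 encode kinases that switch off pyruvate dehydrogenase and so hold pyruvate back from the mitochondria. Pdk1 ran from 9.16 through 9.89 to 10.11 in the clones, against 8.43 and 8.29 in GSC, and rose by 1.46 ± 0.18 (adjusted p = 4.47e-07 by limma). Pdk3 moved the other way, from 8.89 and 8.82 in GSC to a range of 7.31 through 7.83 to 8.35, and fell by 1.03 on the log2 scale (SE 0.19; adjusted p = 6.12e-05 by limma). It was the 1 gene of the 33 for which all clones lay below both GSC lines. Pfkfb3 and Pfkfb4, which set the level of the phosphofructokinase activator fructose 2,6-bisphosphate, differed by 0.37 ± 0.27 and -0.36 ± 0.20 and were not called (adjusted p = 0.265 and 0.135 by limma). Pfkfb3 was at background on most arrays.

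Of the 11 further hypoxia-response genes 8 were called higher, and 2 of these, Vegfa and Adm, passed on line means. Vegfa, the main angiogenic growth factor, ran from 7.44 in gPSC[GSCadult]#2 through 9.32 to 11.04 in iPSC[GSCneonatal]#1, against 6.57 and 6.70 in GSC. The clones differed among themselves by more than the lowest of them differed from GSC, and Vegfa rose by 2.58 ± 0.46 (adjusted p = 5.47e-05 by limma; 0.0465 on line means). Adm, the vasodilator peptide adrenomedullin, ran from 5.37 through 6.45 to 7.19, against 5.25 and 4.91, and rose by 1.26 ± 0.23 (adjusted p = 6.04e-05 by limma). Called on arrays alone were Egln3 (1.56 ± 0.39), a prolyl hydroxylase, Ndrg1 (1.54 ± 0.47), a stress-response gene, and Car9 (0.84 ± 0.28), a carbonic anhydrase at the cell surface. So were P4ha1 (1.07 ± 0.39) and P4ha2 (1.02 ± 0.29), subunits of collagen prolyl hydroxylase, and Ddit4 (1.02 ± 0.32), an inhibitor of mTORC1. For these 6, adjusted p on line means ran from 0.101 for P4ha2 to 0.218 for P4ha1 by limma. In Egln3, Ndrg1 and Ddit4 the clone gPSC[GSCadult]#2 lay below both GSC lines, and the other 7 lay above both. Without GSC[neonatal] the array calls of Car9 (adjusted p = 0.191 by limma) and Ddit4 (0.122) were lost, without GSC[adult] those of Ndrg1 (0.0824) and P4ha2 (0.078), and that of P4ha1 was lost without either line (0.0695 and 0.213).

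The other 3 genes of this group were not called. Egln1, a prolyl hydroxylase that limits HIF-1, ran from 4.43 through 5.03 to 6.16 in the clones, against 5.26 and 5.61 in GSC. Its difference of -0.27 ± 0.28 had an adjusted p of 0.460 by limma. Gys1, glycogen synthase, differed by 0.56 ± 0.32 and Higd1a, a mitochondrial protein induced by hypoxia, by -0.27 ± 0.31. All 3 were near the detection floor, where differences are compressed.

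**Figure D1:**
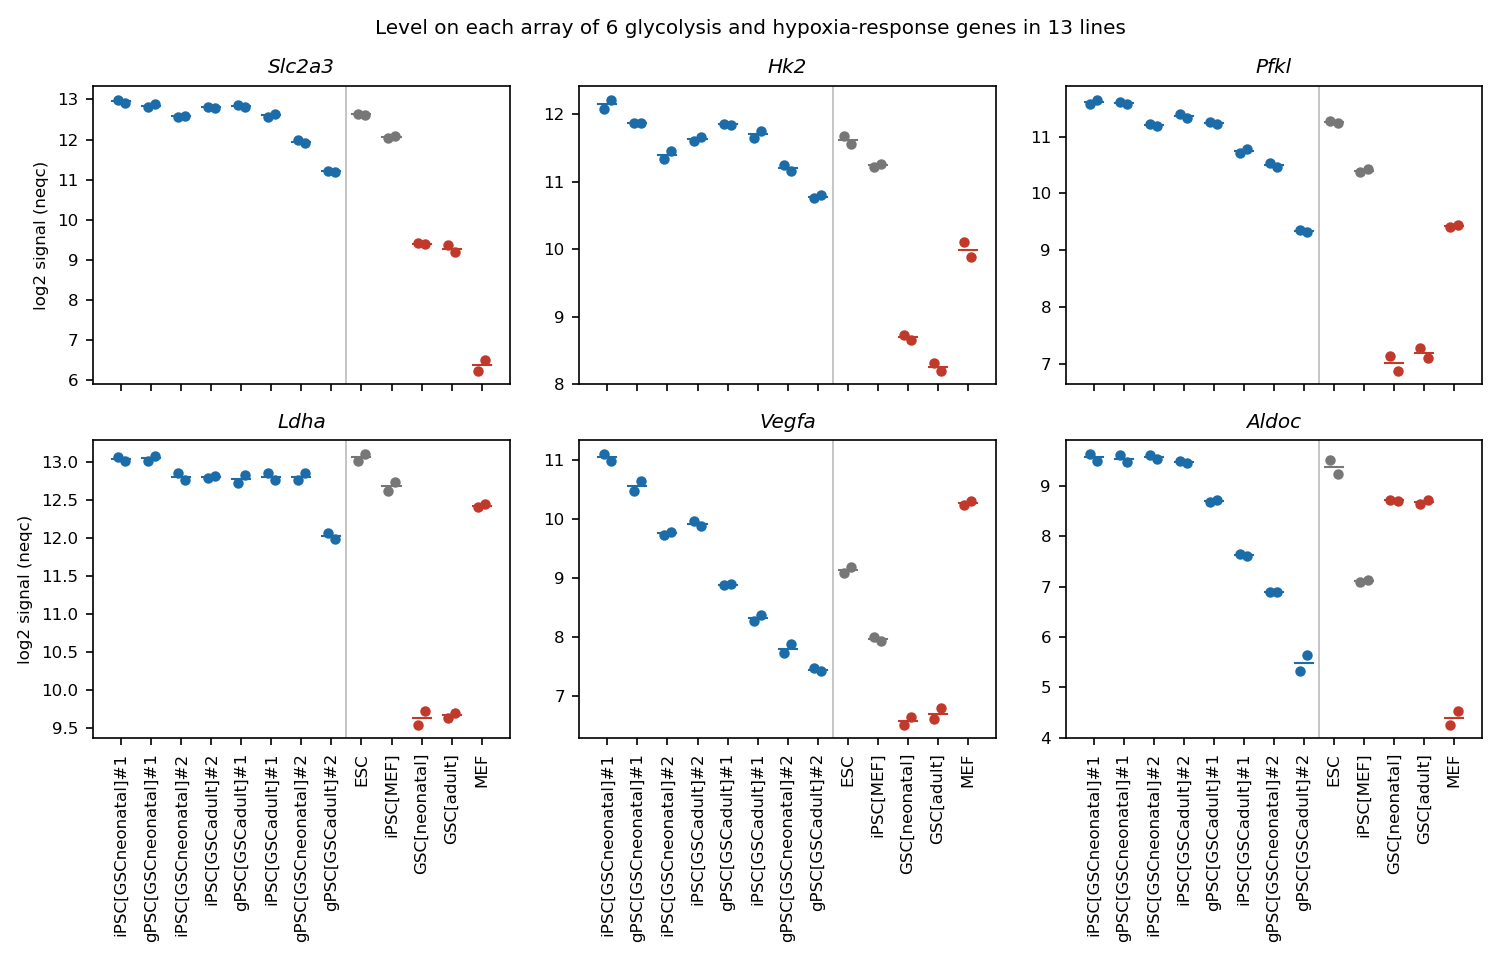
Log2 signal of Slc2a3, Hk2, Pfkl, Ldha, Vegfa and Aldoc on each of the 26 arrays (points) with the mean of each line (bars); blue, germline-derived clones ordered by the mean of all 33 genes, grey, ESC and iPSC[MEF], red, GSC and MEF. In the first 5 genes all 8 clones lie above both GSC lines, in Aldoc the GSC lines at 8.72 and 8.69 lie inside the range of the clones, and MEF is low for Slc2a3 and Aldoc and high for Ldha and Vegfa.

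The step from fibroblasts had fewer calls. In iPSC[MEF] against MEF, 7 genes were called higher and 4 lower, or 33.3% of the 33, where 31.9% of all genes were called, 16.8% higher and 15.1% lower. On line means 3 rose and 1 fell, against a background of 18.5%, 8.79% higher and 9.74% lower, so the share of called genes was near or below that of all genes in both fits. The median difference was 0.35, against 0.08 over all genes. Each side is 1 line, and on line means the spread is taken from the other lines.

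Slc2a3 was at 12.06 in iPSC[MEF] and 6.36 in MEF, the widest gap of the 33 genes, and it rose by 5.69 ± 0.47 (adjusted p = 3.30e-09 by limma). Pdk1 was at 9.76 and 6.45 and rose by 3.32 ± 0.33 (adjusted p = 6.28e-08 by limma). Pfkm was at 9.79 and 8.14 and rose by 1.65 ± 0.30, and Pfkfb4 was at 5.59 and 7.51 and fell by 1.92 (SE 0.35) on the log2 scale. Slc2a3, Pfkm and Pdk1 are thus the genes that rose, and Pfkfb4 the gene that fell, in both fits.

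The other 7 calls were made on arrays alone. Slc2a1 differed by 1.59 ± 0.54, Hk2 by 1.25 ± 0.40, Pkm by 1.10 ± 0.30 and Aldoc by 2.73 ± 1.00, with adjusted p on line means of 0.264, 0.202, 0.0769 and 0.334 by limma. Aldoc was not above background on either MEF array and was at 7.12 in iPSC[MEF], at least 3.45-fold higher. On the lower side Vegfa was at 7.96 in iPSC[MEF] and 10.26 in MEF, a difference of -2.31 ± 0.82 (0.320 on line means). P4ha2 differed by -1.76 ± 0.51 and Adm by -1.10 ± 0.41 (0.160 and 0.0644 on line means). Ldha was at 12.67 and 12.42, Tpi1 at 11.96 and 12.28, and Aldoa at 11.90 and 11.24, and none of these was called.

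The fibroblasts and the germline cells started from different levels, and these comparisons share samples: the germline step and the GSC to MEF comparison share the GSC lines, and the fibroblast step and the latter share MEF. In GSC against MEF, 4 genes were called higher and 13 lower, where 46.0% of all genes were called, 25.4% higher and 20.6% lower. On line means 3 were higher and 6 lower, or 9 of 33 against a background of 38.5%, 21.5% higher and 17% lower. Ldha was at 9.63 and 9.67 in GSC against 12.42 in MEF, a difference of -2.77 ± 0.26 (adjusted p = 9.69e-09 by limma). Tpi1 (-2.66 ± 0.38), Adm (-2.01 ± 0.35), Pfkfb4 (-1.50 ± 0.30), Eno3 (-1.43 ± 0.32) and Gapdh (-0.84 ± 0.19) also passed in both fits. Slc2a3 (2.97 ± 0.41), Pdk1 (1.91 ± 0.28) and Pfkm (1.30 ± 0.26) were higher in GSC in both fits. Among the calls on arrays alone, Vegfa differed by -3.63 ± 0.71, Pfkl by -2.33 ± 0.47, P4ha2 by -1.97 ± 0.44 and Aldoc by 4.31 ± 0.87. Aldoc was at background on both MEF arrays and at least 10.3-fold higher in GSC. The lower calls of Hk2, Aldoa, P4ha1 and Slc16a3 were likewise made on arrays alone, and Slc16a3 was at background on all arrays of both sides.

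The steps themselves were compared by the difference between the germline step (clones minus GSC) and the fibroblast step (iPSC[MEF] minus MEF). Of 33 genes 13 were called with a larger germline step and 4 with a larger fibroblast step, where 34.6% of all genes were called, 15.7% and 18.9% in these directions. On line means there were 5 and 1, with a background of 23.2%, 10.6% and 12.6% in the same order. Ldha was at 3.11 in the germline step and 0.25 in the fibroblast step, and the difference of 2.86 ± 0.34 was called (adjusted p = 1.11e-06 by limma). Tpi1 was at 2.78 and -0.31, Adm at 1.26 and -1.10, Pfkfb4 at -0.36 and -1.92 and Gapdh at 1.23 and 0.37, and these 4 differences were called in both fits as well. Pdk1 was the reverse, at 1.46 and 3.32 (-1.85 ± 0.37; adjusted p = 4.85e-04 by limma), also in both fits. Vegfa was at 2.58 and -2.31, the widest difference between the steps at 4.88 ± 0.94, and Slc2a3 at 3.14 and 5.69. These last calls did not pass on line means (adjusted p = 0.0849 and 0.0857 by limma). Without gPSC[GSCneonatal]#2 the differences called were 19 on arrays and 7 on line means, where 39.3% and 22.8% of all genes were called. On line means those of Gapdh and Pdk1 were then lost (adjusted p = 0.0628 and 0.0606 by limma), and those of Vegfa, P4ha1 and P4ha2 passed.

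On arrays 9 genes were called in both steps, 6 in the same direction and 3 in opposite directions, where 12.1% and 6.34% of all genes were. The counts were the same without gPSC[GSCneonatal]#2. Slc2a1, Slc2a3, Hk2, Pfkm, Pkm and Pdk1 were higher after both steps. Vegfa, Adm and P4ha2 were higher in the clones than in GSC and lower in iPSC[MEF] than in MEF. On line means Slc2a3 and Pdk1 alone passed in both steps, both higher, and 0 genes of the set passed in opposite directions. Of all 9840 genes, 692 passed in both steps in the same direction and 256 in opposite directions on line means. On line means neither share of the set was thus above that of all genes, whereas on arrays both were.

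**Figure D2:**
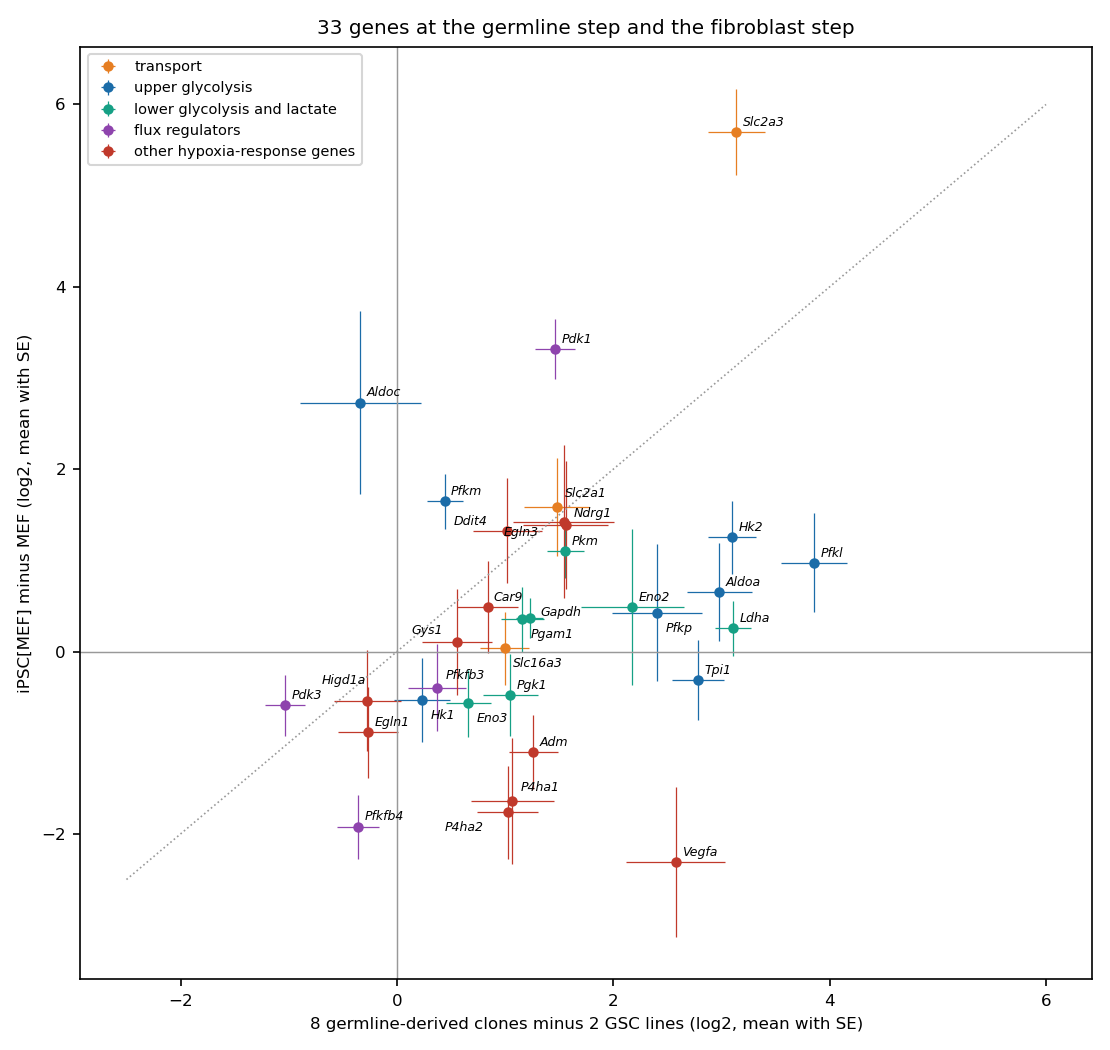
Log2 difference of each of the 33 genes at the germline step (x axis, 8 clones minus 2 GSC lines) and at the fibroblast step (y axis, iPSC[MEF] minus MEF), with SE bars from limma on arrays, coloured by role; the dotted line marks equal differences. Most glycolytic enzymes lie below the line, and Slc2a3, Pdk1, Pfkm and Aldoc lie farthest above it. Vegfa, Adm, P4ha1 and P4ha2 lie right of 0 on the x axis and below 0 on the y axis, as do Tpi1, Pgk1, Eno3, Hk1 and Pfkfb3, which lie nearer to 0 on the y axis.

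ESC lay inside the range of the 8 clones for 29 of the 33 genes, above it for Gapdh, Ldha and Adm, and below it for Higd1a. Of all genes 80.3% had ESC inside the range, 10.4% above and 9.32% below. The counts of the 33 genes were the same without gPSC[GSCneonatal]#2. iPSC[MEF] lay inside the range of the 8 clones for 32 genes and below it for Pgk1, where 85.8% of all genes lay inside and 6.23% below. However, 1 of those clones is gPSC[GSCneonatal]#2, from which iPSC[MEF] differed by a median of 0.079 over the 33 genes. Within the range of the other 7 clones iPSC[MEF] lay for 27 genes and below it for 6, where 78.5% of all genes lay inside and 9.31% below. ESC was at 13.06 for Ldha, where the highest clone was at 13.04, and at 9.14 for Vegfa, close to the median clone. No test was made of ESC, a single line, against the clones.

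Among the 8 clones the level of the whole set differed. The mean difference of the 33 genes from the mean of the 8 clones was 0.68 in iPSC[GSCneonatal]#1, 0.51 in gPSC[GSCneonatal]#1, 0.27 in iPSC[GSCneonatal]#2, 0.16 in iPSC[GSCadult]#2, 0.08 in gPSC[GSCadult]#1, -0.31 in iPSC[GSCadult]#1, -0.45 in gPSC[GSCneonatal]#2 and -0.94 in gPSC[GSCadult]#2. The 2 arrays of each line lay close together on this measure, at 0.66 and 0.70 in the highest clone and -0.92 and -0.95 in the lowest. On the same measure ESC was at 0.18, iPSC[MEF] at -0.43, MEF at -0.81 and the GSC lines at -1.31 and -1.32. The clone gPSC[GSCadult]#2 was the lowest of 8 for 24 of the 33 genes, and iPSC[GSCneonatal]#1 the highest for 19.

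**Figure D3:**
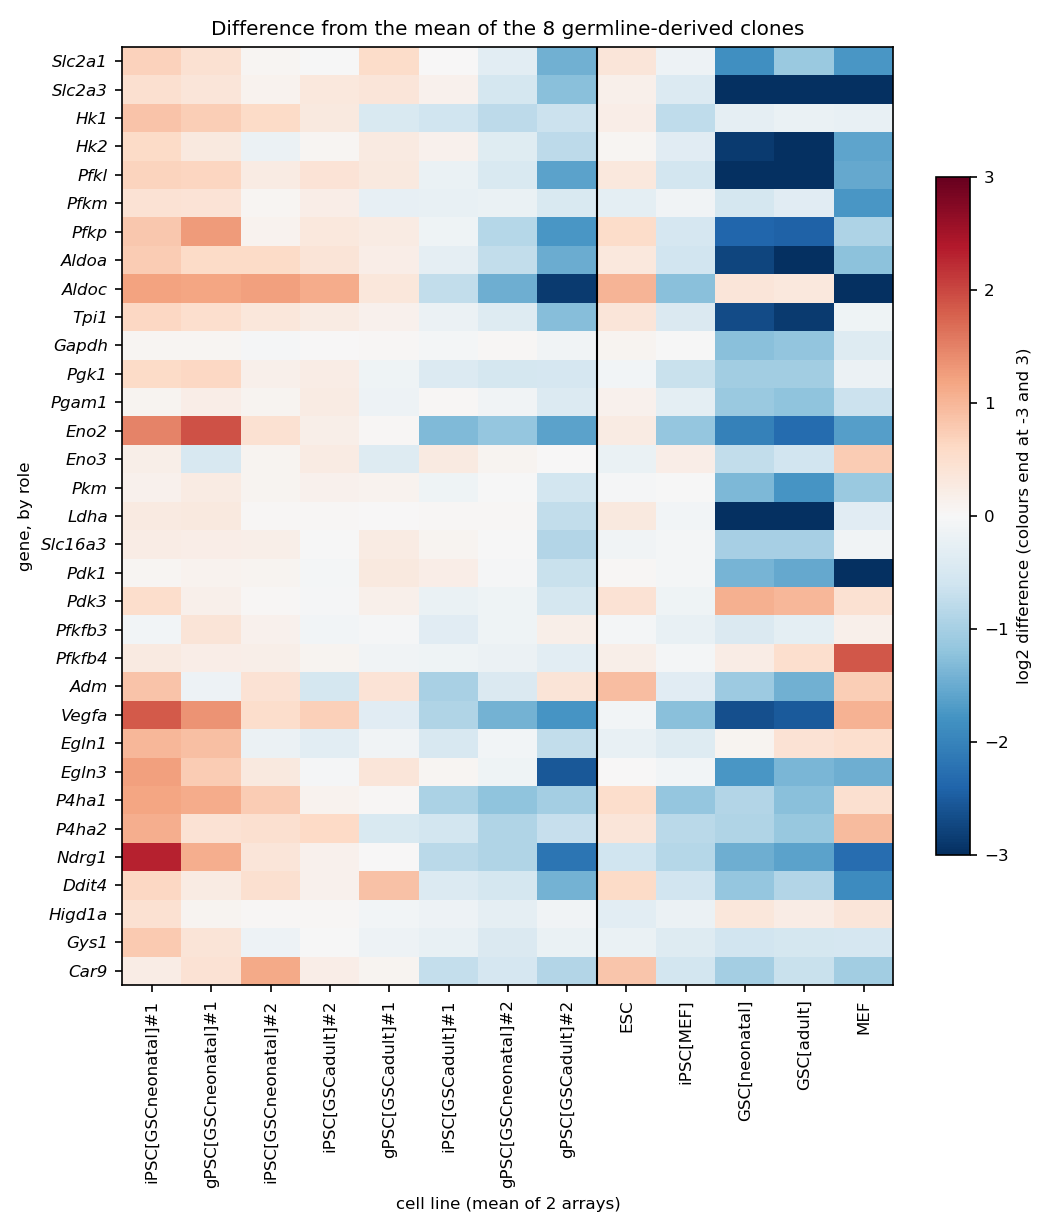
Difference of each line mean from the mean of the 8 germline-derived clones, for the 33 genes in order of role (rows) and the 13 lines (columns), in log2 units with colours ending at -3 and 3. The clones at the left are redder and those at the right bluer for most genes, Gapdh and Ldha vary little between clones, and the GSC columns are blue except for Pdk3 and a few dim or unchanged genes.

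Markers of fibroblasts, which could also come from feeder cells, moved with this order. Over 8 measured markers the mean log2 signal was 4.86 in iPSC[GSCneonatal]#1 and 5.49 in gPSC[GSCneonatal]#1, the clones with the highest set mean. It was 7.35 in gPSC[GSCneonatal]#2 and 8.97 in gPSC[GSCadult]#2, the clones with the lowest, against 9.26 in MEF. In between it ran from 5.90 to 6.54. In gPSC[GSCadult]#2 all 8 markers were detected on both arrays, but not in the proportions of MEF. Dcn and Lum, proteoglycans of connective tissue, stood at 11.68 and 11.21 against 7.30 and 5.21 in MEF, whereas the other 6 were lower than in MEF, among them the collagen gene Col1a1 at 9.09 against 12.23 and the surface marker Thy1 at 9.61 against 11.80. In iPSC[GSCneonatal]#1, 4 of the 8 markers were at background on both arrays. The 8 pluripotency markers had a mean of 9.59 in gPSC[GSCneonatal]#2 and 10.22 to 11.20 in the other 7 clones. These means rest in part on 1 gene, Tdgf1. It was at background in gPSC[GSCneonatal]#1 and #2, at 4.28 and 4.39, and at 9.25 to 10.57 in the other clones. The part of fibroblast or feeder RNA in the differences between clones was not tested.

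**Figure D4:**
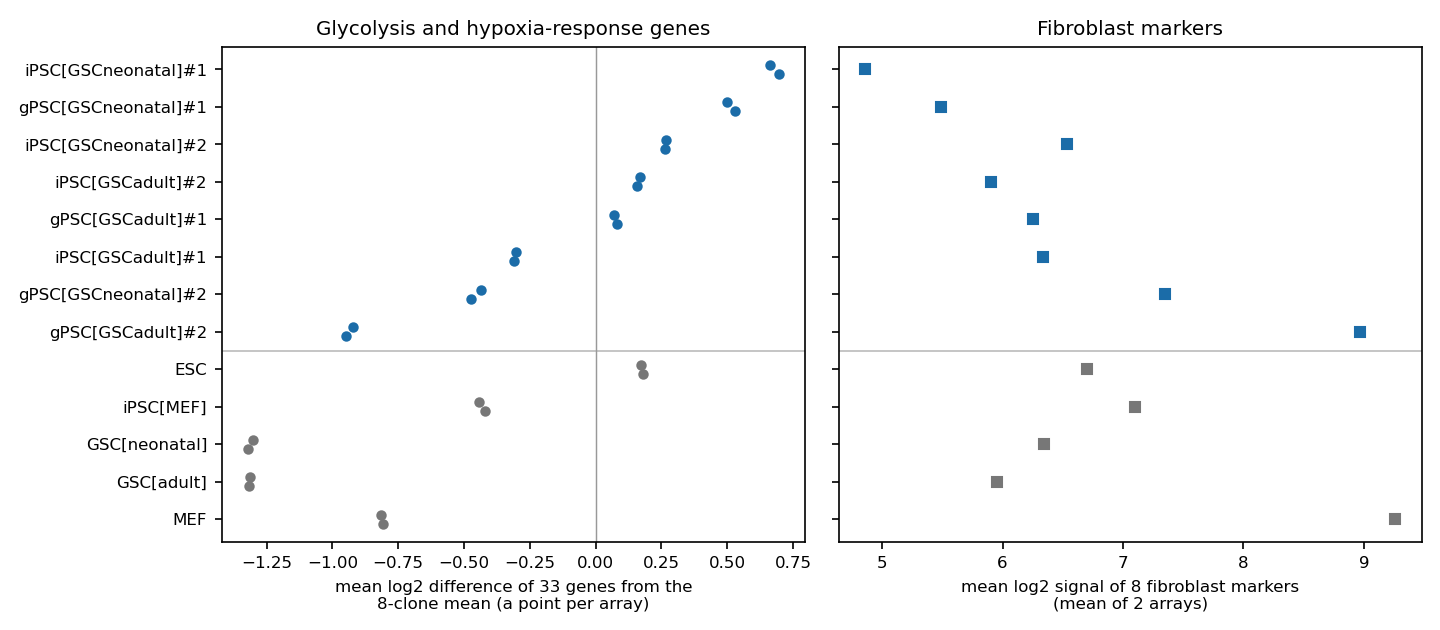
Left, mean log2 difference of the 33 genes from the mean of the 8 germline-derived clones, a point per array; right, mean log2 signal of 8 fibroblast markers, a point per line (mean of 2 arrays). The clone with the highest set mean, 0.68, has the lowest marker mean, 4.86, and the clone with the lowest, -0.94, has the highest, 8.97.

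The genes also varied together over the clones. Each gene was correlated with the mean of the other 32 over the 8 clone means, as a description with no test, since the points share clones and arrays. The median r was 0.879, and 29 of 33 genes had an r of 0.7 or more. Among 9807 other genes 21.2% reached 0.7 with the mean of the 33 and 17.9% lay at -0.7 or below, so strong correlation with this order of clones was common on these arrays. Of 528 pairs within the set 486 had an r above 0. Without the 2 clones farthest from the median, gPSC[GSCneonatal]#2 and gPSC[GSCadult]#2, the median was 0.838 and 22 genes reached 0.7. Without gPSC[GSCneonatal]#2 alone they were 0.909 and 29.

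Aldoa (r = 0.975), Tpi1 (0.974), Ndrg1 (0.969), Vegfa (0.962) and Pfkfb4 (0.960) followed the mean of the others most closely. Aldoa and Tpi1 catalyse neighbouring steps of glycolysis, and Vegfa and Ndrg1 had some of the widest clone ranges, from 7.44 to 11.04 and from 6.96 to 11.46. Aldoc had the largest SD over clones, 1.54, and an r of 0.951. The lowest values were those of Eno3 (-0.241), Pfkfb3 (0.189), Adm (0.272), Pdk1 (0.634) and Gys1 (0.756). Eno3 was lowest in gPSC[GSCneonatal]#1, a clone that was high for most other genes. Adm was lowest in iPSC[GSCadult]#1 at 5.37 and stood at 6.71 in gPSC[GSCadult]#2, which was low for most. Among genes outside the set, Tube1, Jkamp, Pdxp, Agps and Csnk1d had the highest r with the mean of the 33, from 0.990 to 0.996.

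**Figure D5:**
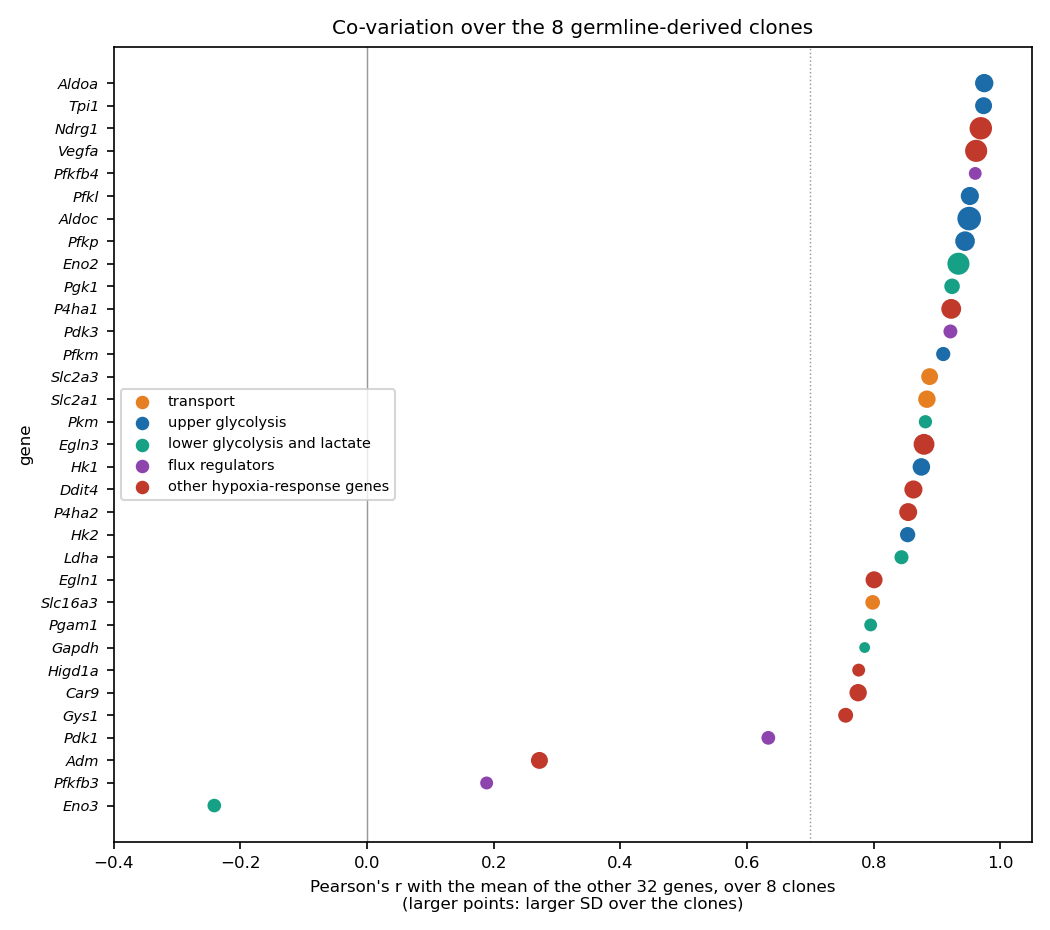
Pearson's r of each of the 33 genes with the mean of the other 32 over 8 clone means (x axis), genes in order of r, coloured by role and sized by the SD over clones; the dotted line marks 0.7. All but Pdk1, Adm, Pfkfb3 and Eno3 lie at or above 0.7, and Eno3 lies below 0.

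No gene of the set was called for the method of reprogramming or for the origin of the clones. In iPSC[GSC] against gPSC clones (4 against 4), 0 of 33 genes were called by limma on clone means and 0 had an unadjusted p under 0.05, where 0 of 9840 genes were called and 4.99% had an unadjusted p under 0.05. The difference was above 0 for 30 of the 33 genes, with a median of 0.37. Without gPSC[GSCneonatal]#2 and gPSC[GSCadult]#2 the median was -0.07. These 2 clones, both gPSC, had the lowest means over the set and were chosen after seeing the data. Leaving them out lowers the difference by construction, so no conclusion is drawn from it. Single clones moved the median as well, to 0.14 without gPSC[GSCneonatal]#2, 0.12 without gPSC[GSCadult]#2, 0.22 without iPSC[GSCneonatal]#1 and 0.56 without gPSC[GSCadult]#1. Without the last of these 11 genes had an unadjusted p under 0.05, and without gPSC[GSCneonatal]#1 there were 4, with 0 called after adjustment in each case. The smallest p belonged to Eno3, at 6.73 ± 0.09 (SD, n = 4) in iPSC[GSC] and 6.36 ± 0.28 in gPSC clones (0.38 ± 0.17 SE; adjusted p = 0.742 by limma). P4ha2 differed by 0.81 ± 0.38, Pgam1 by 0.22 ± 0.13 and Aldoa by 0.73 ± 0.45, with the same adjusted p.

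In adult-derived against neonatal-derived clones (4 against 4), 0 of 33 genes were called and 0 had an unadjusted p under 0.05, where 0 genes were called and 4.47% of all genes had an unadjusted p under 0.05. The difference was below 0 for 32 of the 33 genes, with a median of -0.41. Single clones moved the median to -0.18 without gPSC[GSCadult]#2, -0.23 without gPSC[GSCneonatal]#1, -0.27 without iPSC[GSCadult]#1, -0.60 without gPSC[GSCneonatal]#2 and -0.61 without gPSC[GSCadult]#1. The number of genes with an unadjusted p under 0.05 was 13 without gPSC[GSCadult]#1 and 9 without gPSC[GSCneonatal]#2, with 0 called after adjustment. Without both gPSC[GSCneonatal]#2 and gPSC[GSCadult]#2 the median was -0.41 and the number 4. Egln1 had the smallest p, with a mean of 4.76 ± 0.26 (SD, n = 4) for the adult origin and 5.58 ± 0.62 for the neonatal origin (-0.82 ± 0.34 SE; adjusted p = 0.751 by limma). Adm differed by -0.35 ± 0.16, Ndrg1 by -1.43 ± 0.73 and Hk1 by -0.70 ± 0.37, with the same adjusted p. A test of the interaction of method and origin called 0 of 33 genes, and 1 had an unadjusted p under 0.05. With 4 clones a side, these results do not show that the groups are alike.

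Genes around the set were read from lists drawn up by function, with calls by limma on the 26 arrays. Of 13 other measured glycolytic isozymes and regulators, 2 were called higher in the clones than in GSC and 0 lower: Pdk4, another pyruvate dehydrogenase kinase, by 2.13 ± 0.28, and Pgam2, the muscle mutase, by 1.39 ± 0.26. Of 10 regulators of the hypoxia response 2 were called higher and 2 lower. Bhlhe40, a transcriptional repressor induced by HIF-1, differed by 3.78 ± 0.37 and Epas1, which encodes HIF-2α, by 0.78 ± 0.28. Egln2, the third prolyl hydroxylase, differed by -1.10 ± 0.24 and Siah2, a ubiquitin ligase acting on the Egln proteins, by -1.03 ± 0.29. Hif1a itself differed by 0.41 ± 0.23 and was not called (adjusted p = 0.148 by limma).

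Of 25 other hypoxia targets 10 were called higher and 3 lower, with a median of 0.37 against -0.01 over all genes. Angptl4, an inhibitor of lipoprotein lipase, differed by 1.95 ± 0.30 and Stc2, a secreted glycoprotein, by 1.57 ± 0.25, whereas Bnip3l, a mitophagy receptor, differed by -0.60 ± 0.16. Of 17 genes of pyruvate entry and the citrate cycle 6 were called higher and 2 lower, among them Idh3a (2.10 ± 0.26) and Pdha1 (1.86 ± 0.18), the target of the Pdk kinases, and on the lower side Mdh2 (-0.80 ± 0.21). Of 4 pentose phosphate genes 1 was called in each direction, Tkt, a transketolase, by 2.44 ± 0.26 and Rpia, ribose phosphate isomerase, by -2.76 ± 0.19. Ldhc, the testis form of lactate dehydrogenase, differed by -0.69 ± 0.26 and was called lower. These counts stand beside the same background, 23.2% higher and 27.3% lower.

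Further probes above background were present for 11 of the 33 genes, 14 in all. The sign of the germline step was the same in 14 of 14, of the fibroblast step in 13, of GSC against MEF in 10 and of the difference between steps in 12. The sizes were not always alike. In the germline step a dim Tpi1 probe differed by 0.72, where the others of that gene differed by 2.78 and 2.98, and 1 of 3 Pfkm probes differed by 0.0045, where the others differed by 0.44 and 0.43. The opposed probes belonged to Egln1, Egln3 and Gys1 in GSC against MEF, Egln1 in the difference between steps and Tpi1 in the fibroblast step.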

How the data were processed

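RNA of 13 lines was hybridised to 26 arrays. Labelled cRNA was made with a TotalPrep kit, per the labels' protocols. Biological replicates is the labels' term for a line's 2 arrays, with no word on whether cultures were separate, so p-values measure only the spread between these samples, which may be technical. The number of one adult GSC array was taken from its title, since its description carries the number of the other. Per the file headers, the deposited table of 25697 probes pairs an intensity with a detection p-value on every array. The submitters' processing notes name BeadStudio 3.2, RMA and lumi, with no role or order. The authors also deposited a matrix of normalised values, read as log2 from its range (0.198 to 14.2), which served as an alternative.

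neqc (offset 16) in limma 3.58.1 under R 4.3.3 corrected the background from those p-values, quantile-normalised and took log2. A probe had to be detected (p under 0.01) on 2 or more arrays, and each gene took its kept probe of highest mean. Probe names came from the platform annotation, updated by Entrez identifier. The main fit in limma used 26 arrays, 9 cell types and a random block for line (consensus correlation 0.812), and method and origin were fitted on 8 clone means. Fits were tested on simulated data with differing variation between lines: the array fit called more unchanged genes than its threshold allows, and the fit on line means did not, which is why both are given. The members, lists and tests were chosen with earlier results of these data known. The genes named were the members, plus those the correlation rule picks and examples from the other lists, which were chosen after their values were seen. Sequences are RefSeq windows on GRCm38.p6. Replicate numbers did not pair the arrays: deviations of same-numbered arrays correlated at -0.19 to 0.41 over 78 pairs of lines, with a median of 0.009. In the 8 lines with 1 array of each background, number 1 was the array of higher background, and their 28 pairs correlated at 0.083 to 0.41, so there the number follows that array set, which was fitted as an alternative.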

Additional observations from a re-analysis of the deposited data

Results flagged for a closer look

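The effects of the germline step and the fibroblast step differed, by a test of the difference itself in limma on 26 arrays, for 17 of the 33 genes. Of all genes 34.6% were called in this test. The difference (germline step minus fibroblast step, log2) was 4.88 for Vegfa, 3.09 for Tpi1, 2.88 for Pfkl, 2.86 for Ldha, 2.78 for P4ha2, 2.71 for P4ha1, 2.36 for Adm, 2.33 for Aldoa, 1.84 for Hk2, 1.56 for Pfkfb4, 1.52 for Pgk1, 1.23 for Eno3 and 0.86 for Gapdh. It was -3.07 for Aldoc, -2.56 for Slc2a3, -1.85 for Pdk1 and -1.21 for Pfkm. On line means Tpi1, Gapdh, Ldha, Pdk1, Pfkfb4 and Adm also passed, 6 of 33, where 23.2% of all genes passed. The share on line means was thus not above that of all genes. By their labels the 2 steps share no sample. However, gPSC[GSCneonatal]#2 of the germline step and iPSC[MEF] of the fibroblast step correlated at 0.997 over all genes, so their independence is not certain. Aldoc was at the detection floor on both MEF arrays, Pgk1 on all arrays of GSC, iPSC[MEF] and MEF, and the MEF arrays stand apart in raw signal.

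Within the groups of 4 clones, 4 of 66 gene and group pairs had a clone far from its neighbours by Dixon's criterion, where chance gives about 1 in 20. All 4 were in the iPSC[GSC] clones. In iPSC[GSCneonatal]#1, Slc2a1 stood at 12.63 with the nearest other clone at 12.01, and Ldha at 13.04 with the nearest at 12.80. In iPSC[GSCadult]#1, Aldoc stood at 7.63 with the nearest at 9.48, and Pkm at 12.87 with the nearest at 13.09.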

How the results depend on the processing

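On 13 line means the counts of called genes were 17 for the germline step, 4 for the fibroblast step, 9 for GSC against MEF and 6 for the difference between steps. Leaving out 1 replicate number or 1 line at a time gave 17 to 26, 4 to 5, 10 to 15 and 5 to 19 calls, 0 to 0 for method and for origin, and a median r of 0.856 to 0.909. With the replicate block the counts were 26, 11, 17 and 17, and 0 for method and for origin, so the block changed no count of calls. In that fit on arrays 5 genes for method and 10 for origin had an unadjusted p under 0.05, against 0 on clone means. With the array set of higher background as a term the counts of calls were 27 and 17 for the germline step and the difference between steps and 0 for method and origin, and the unadjusted counts 7 and 10. On line means without gPSC[GSCneonatal]#2 (chosen after seeing the data) the calls were 20 and 7, where 43.7% and 22.8% of all genes were called. For single genes, the direction was kept in every alternative to a called difference; over the germline step 575 of 624 values stayed on their side of the threshold and 49 did not, and over the fibroblast step 93 and 28. Offsets, background correction, the authors' matrix, the probe filters and the mean over probes gave 25 to 27 calls in the germline step and 9 to 11 in the fibroblast step. On arrays of lower background alone 21 genes were called in the germline step, where 44.6% of all genes were called. MEF have 2 arrays of 1 line, so the fibroblast step rests on them, and genes near background have compressed differences.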
